A study of Mus musculus with 4 samples.

Results

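The genes described are 10 that are known for the signalling of tuft cells, Trpm5, Pou2f3, Chat, Il25, Alox5ap, Ltc4s, Plcb2, Gnat3, Sh2d6 and Avil, out of 22399 genes counted. They were taken from a list of names. They were read in 4 droplet libraries of single cells, 2 female and 2 male. The mice were wild-type C57BL/6J, 3 months old, and their main olfactory epithelium was dissociated with papain and captured with droplet chemistry that reads the 5′ end of transcripts (version 2). The only groups are the sexes. The labels do not say that each library came from its own animal, so p-values measure the spread between these libraries, which may be technical. Total depth was 100725429 to 111577458 UMIs per library (a unique molecular identifier, UMI, marks 1 captured molecule), and 39715 barcodes with at least 500 genes and at most 10% mitochondrial UMIs were kept. Pairs of libraries differed well beyond counting noise, with a chi-square per gene of 19.11 to 36.31, and shared 126 to 149 barcodes.

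Tuft cells are rare chemosensory cells of epithelia, and in the nose they are found in the respiratory lining and, as Trpm5-positive microvillar cells, in the olfactory epithelium. In the taste-type cascade, a G protein with the alpha subunit gustducin (Gnat3) activates phospholipase C-β2 (Plcb2), calcium is released through the receptor Itpr3, and the cation channel Trpm5 opens. Tuft cells depend on the transcription factor Pou2f3, make acetylcholine with choline acetyltransferase (Chat), release the cytokine interleukin-25 (Il25), and make cysteinyl leukotrienes through the 5-lipoxygenase-activating protein (Alox5ap) and leukotriene C4 synthase (Ltc4s). Avil encodes advillin, an actin-binding protein of the villin family, and Sh2d6 an SH2-domain adaptor. Trpm5 is also known from a subset of olfactory sensory neurons.

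Barcodes were gated by marker UMIs, with none of the 10 genes used. At least 10 Omp UMIs marked mature olfactory sensory neurons, 5 Cyp2g1 UMIs sustentacular (supporting) cells, 3 Krt5 UMIs horizontal basal cells, 2 Ascl3 UMIs ionocyte-like microvillar cells and 2 Ptprc UMIs leukocytes, and a barcode past more than 1 of these limits was called mixed. The tuft-marker gate asked for at least 3 UMIs from at least 2 of the 6 genes Sh2d7, Bmx, Hepacam2, Rgs13, Il17rb and Gfi1b, and for values under the Omp, Cyp2g1, Krt5 and Ptprc limits. It went before the Ascl3 gate, so a barcode past both of these rules alone was counted as tuft-marker. The gates held 18564 (Omp), 7237 (Cyp2g1), 1293 (Krt5), 163 (Ascl3), 466 (Ptprc) and 181 (tuft-marker) barcodes, with 3148 mixed and 8663 in no gate. Cells that were captured together can share a barcode, and free RNA can add UMIs to any barcode, so a UMI is not in itself expression.

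The gates were checked against other markers. The 6 genes that set the tuft-marker gate had between 65.0 ± 12.2 CPM (Gfi1b) and 730 ± 51.4 CPM (Rgs13; counts per 1000000 UMIs of the gate, SD, n = 4) in it. These levels restate the gate and are no check of it. Of the leukocyte list Tyrobp, Cd3e and S100a9 were at 0 UMIs in that gate (3 of 6), Cd52 and Cd79a had 1 UMI each and Lyz2 had 646 ± 907 CPM. What part these markers had in the results was not tested. All 3 genes of the respiratory secretory and ciliated list were present, with Reg3g at 3551 ± 3286 CPM (SD, n = 4) in 14.4% of its barcodes, Scgb1c1 at 8357 ± 13344 CPM and Foxj1 at 97.6 ± 37.4 CPM. Coch, a gene of the ionocyte-like list, had 253 ± 468 CPM there, and 3 of the 181 barcodes also passed the Ascl3 limit. In 24 of the 181 barcodes fewer than 5 of the 10 genes were seen, at a median depth of 10835 UMIs against 4235 UMIs in the other 157. The Omp gate had 1003 ± 22.9 CPM (SD, n = 4) of the channel gene Cnga2, and the Cyp2g1 gate 2167 ± 90.1 CPM of Cyp1a2.

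Positions are those of GENCODE M21 on GRCm38, and all 10 genes are protein-coding. Trpm5 (ENSMUSG00000009246) lies on chromosome 7, 143069153 to 143094642, minus strand. Pou2f3 (ENSMUSG00000032015) lies on chromosome 9, 43123939 to 43210369, minus strand, and Avil (ENSMUSG00000025432) on chromosome 10, 127000709 to 127020994, plus strand. Chat (ENSMUSG00000021919, chromosome 14, 32408203 to 32465989, minus strand) holds Slc18a3, the gene of the vesicular acetylcholine transporter, on the same strand. Genes on the other strand overlap Trpm5 (Tssc4), Chat (Gm2990), Alox5ap (Gm19719), Ltc4s (Gm26542) and Avil (Tsfm), and the strand setting of the counting is not given in the sources used here.

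RefSeq promoter windows (GRCm38.p6) were matched by symbol for 7 of the 10 genes and searched on both strands for the octamer ATGCAAAT and its core ATGCAAA, which the octamer contains, because POU-family factors such as Pou2f3 are known to bind octamers. The window of 250 bases before the start held the octamer in 0 of the 7 genes, against 1.60% of 32851 windows of the same length. The core was in 1 of the 7, Avil, and in 4.12% of all windows. Shown are the Avil window, with both core matches in capitals (the first on the other strand), which begin 115 and 15 bases before the start, and the Trpm5 window, which held no match.
Avil, chr10:127000459-127000708, plus strand: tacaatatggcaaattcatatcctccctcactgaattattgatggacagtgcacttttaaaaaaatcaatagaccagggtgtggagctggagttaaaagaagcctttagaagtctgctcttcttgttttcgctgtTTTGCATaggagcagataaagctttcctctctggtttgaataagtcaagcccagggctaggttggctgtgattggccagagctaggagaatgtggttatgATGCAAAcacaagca
Trpm5, chr7:143094643-143094892, minus strand: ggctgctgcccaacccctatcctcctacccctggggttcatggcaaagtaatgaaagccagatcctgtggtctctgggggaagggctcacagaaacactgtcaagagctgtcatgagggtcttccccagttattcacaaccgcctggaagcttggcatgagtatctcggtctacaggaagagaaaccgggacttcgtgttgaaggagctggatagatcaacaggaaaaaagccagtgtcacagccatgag
A match describes these letters and not a bound site.

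Over whole libraries all 10 genes were low. Trpm5 had 5.39 CPM (female 1), 7.82 (female 2), 7.03 (male 1) and 5.34 (male 2), from 2644 UMIs in 663 barcodes (1.67% of all). Pou2f3 had 3.37, 3.16, 3.17 and 3.06 CPM in the same order, and was seen in 1199 barcodes (3.02%). Pou2f3 thus had fewer UMIs (1323) than Trpm5 in more barcodes. Of the leukotriene genes, Alox5ap had 10.6, 14.5, 14.0 and 13.9 CPM and Ltc4s 4.95, 5.61, 5.76 and 5.08 CPM. Il25 had 7.60, 8.82, 5.78 and 7.87 CPM. Sh2d6 ranged from 4.30 to 5.61 CPM and Avil from 5.49 to 6.95 CPM. Chat (0.807 to 1.19 CPM), Plcb2 (0.947 to 1.25 CPM) and Gnat3 (0.847 to 1.10 CPM) had 402, 457 and 383 UMIs in all. In these totals fewer cells of a type and less RNA per cell cannot be told apart.

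In the tuft-marker gate, from 36, 52, 56 and 37 barcodes of female 1, female 2, male 1 and male 2, every one of the 10 genes had UMIs in all 4 libraries. The channel gene Trpm5 had 641, 871, 920 and 732 CPM and was seen in 92.8% of the 181 barcodes. Upstream of it, Plcb2 had 86.4, 122, 48.1 and 76.6 CPM in 35.9% of barcodes, and Gnat3 96.3, 132, 112 and 153 CPM in 37.6%. Male 1 was the lowest library for Plcb2 and the highest for Trpm5. Plcb2 had only 95 UMIs in the gate over all libraries, against 904 of Trpm5. Whether the ratio of these members of 1 cascade differed between libraries was not tested.

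The transcription factor Pou2f3 had 69.8, 86.8, 99.4 and 91.0 CPM in the gate and was seen in 40.9% of barcodes, with a median of 1 UMI where it was seen. Chat had 116, 154, 199 and 134 CPM in 55.2% of barcodes. Il25 had 668, 1047, 664 and 1594 CPM, and male 2 stood above the other libraries, with Il25 in 86.5% of its barcodes against 58.3% to 65.4% elsewhere. A single barcode held 14.4% of the Il25 UMIs of male 2 in this gate, and 22.9% of those of female 1. The most Il25 UMIs in 1 barcode were 48.

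Alox5ap had 831, 1179, 1305 and 1063 CPM in the tuft-marker gate and Ltc4s 508, 675, 661 and 603 CPM, seen in 86.2% and 85.6% of barcodes. Sh2d6 had 482, 630, 526 and 440 CPM (84.5% of barcodes) and Avil 575, 755, 728 and 498 CPM (89.5%). Female 1 was the lowest library of the gate for Trpm5, Pou2f3, Chat, Alox5ap, Ltc4s and Gnat3.

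**Figure D1:**
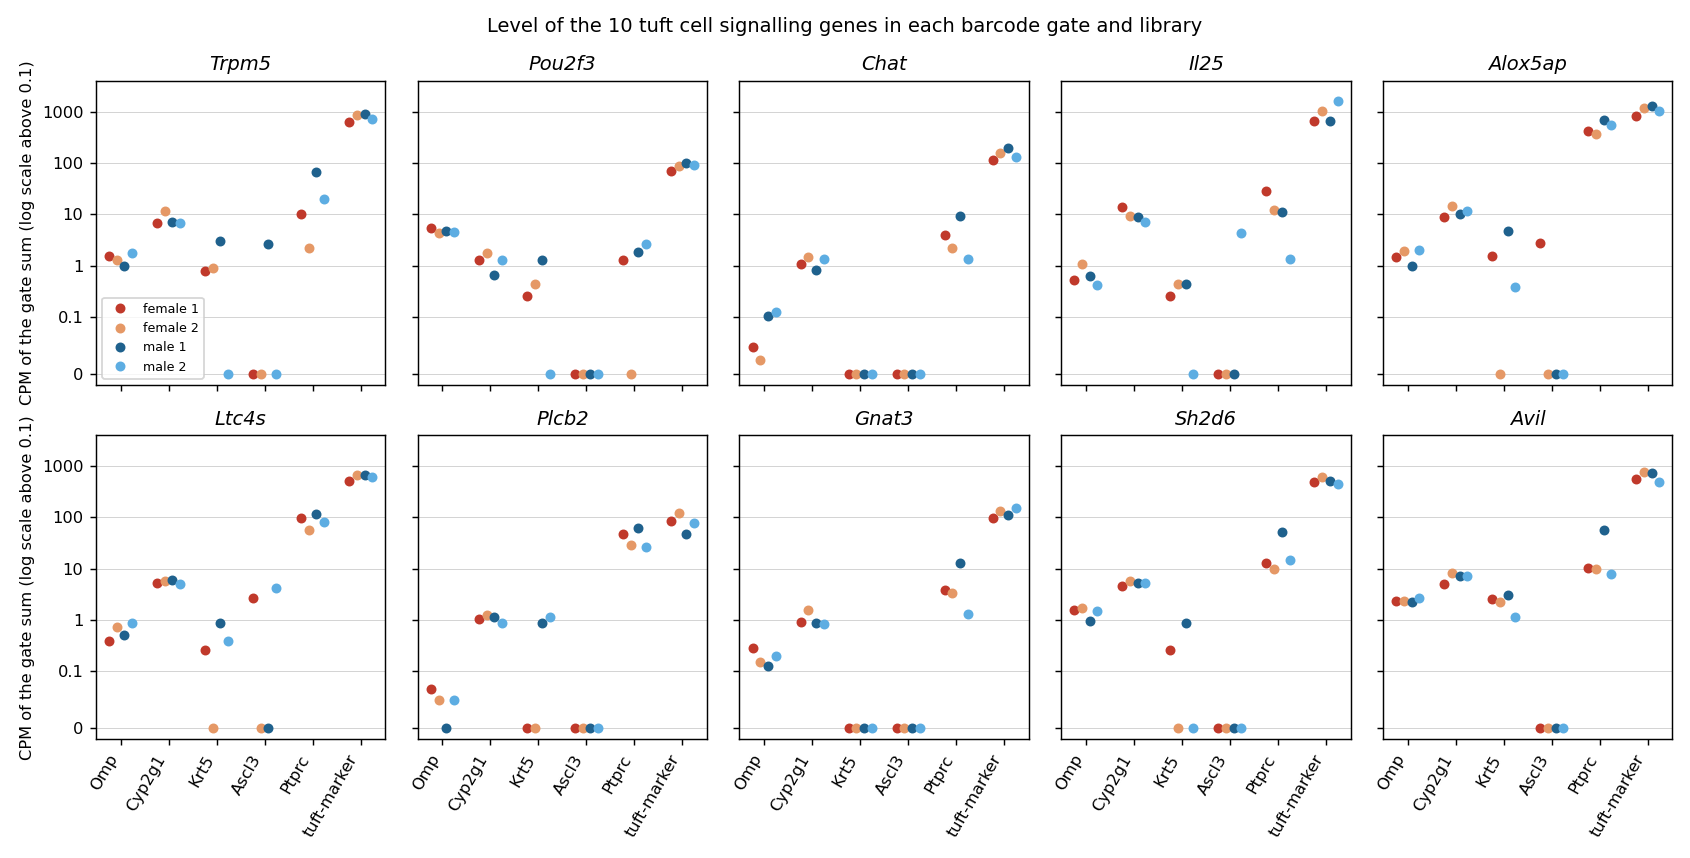
Level of each of the 10 genes in counts per 1000000 UMIs of the gate sum (log scale above 0.1 CPM) in the 6 gates, 1 point for each of the 4 libraries. In all 10 panels the highest single point is one of the tuft-marker gate. Alox5ap, Ltc4s and Plcb2 also stand high in the Ptprc gate, and Pou2f3 is higher in the Omp gate than in the Cyp2g1 gate.

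The other genes of the pathways were taken from lists, and their values in the tuft-marker gate are means over the 4 libraries. The taste-type list had 20 genes. Its G protein gamma subunit Gng13 had 735 ± 179 CPM (SD, n = 4), but 4429 ± 741 CPM in the Omp gate, where it also serves olfactory transduction. The beta subunit Gnb3 had 2 UMIs in the gate. The release channel gene Itpr3 had 19.8 ± 15.6 CPM, and the phospholipase Plcg2 201 ± 57.5 CPM. Of the taste receptor genes, Tas1r3 had 14 UMIs, Tas2r108 had 24, and Tas1r1, Tas1r2, Tas2r105 and Tas2r143 had 0, which allows a level of up to 2.65 CPM (3 counts of the gate). The succinate receptor Sucnr1, known from tuft cells of the gut, had 1 UMI in all libraries together.

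Of the eicosanoid list, Alox5 (5-lipoxygenase, the enzyme that Alox5ap serves) had 739 ± 121 CPM (SD, n = 4), the cyclooxygenase gene Ptgs1 601 ± 103 CPM, the phospholipase A2 gene Pla2g4a 211 ± 61.8 CPM and the prostaglandin D synthase gene Hpgds 88.9 ± 10.2 CPM. Genes of the leukotriene receptors Cysltr1, Cysltr2 and Oxgr1 had 0 UMIs in the gate, while Cysltr1 had 22.8 ± 7.49 CPM in the Ptprc gate. In the cholinergic list, Slc18a3, which loads acetylcholine into vesicles, had 1 UMI in the gate and Slc5a7, which takes up choline, had 0. Of the cytokine list, the interleukin-25 receptor gene Il17rb is a gate gene, and Il13ra1 had 371 ± 31.0 CPM (SD, n = 4).

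Among the regulators, Spib had 169 ± 47.7 CPM and Sox9 796 ± 75.9 CPM (SD, n = 4). The coactivators of Pou2f3 are listed under older names, 1810046K07Rik with 227 ± 15.1 CPM, and Colca2 with 31.1 ± 10.1 CPM in the gate and 68.0 ± 2.69 CPM in the Cyp2g1 gate. Over all barcodes, the 10 genes outside the members whose values followed the mean of Trpm5, Pou2f3, Sh2d6 and Avil most closely were Lrmp, Adgrg6, Rgs13, Sh2d7, Alox5, Ly6g6f, Drd4, Cdh6, Pcdh20 and Hmx3. The lowest of their 4 Pearson correlations, 1 per library over barcodes, fell from 0.792 (Lrmp) to 0.559 (Hmx3), and all share the depth and free RNA of a library. The same measure was 0.621 for Ltc4s, 0.548 for Alox5ap and 0.300 for Plcb2, which took no part in that mean.

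The 10 genes were seen together in few barcodes. Of 39715 barcodes, 36047 had no UMI of any of them, 2850 had 1 of the genes, 284 had 2, 85 had 3 or 4, and 449 (1.13%) had 5 or more. These 449 barcodes, 97, 131, 118 and 103 in the 4 libraries, held 70.9% of all UMIs of the 10 genes. All 10 were seen in 15 barcodes, 9 of them in the tuft-marker gate, where the median was 7 of the 10. By gate, 5 or more were seen in 157 of 181 tuft-marker barcodes (86.7%), 151 of 7237 in the Cyp2g1 gate (2.09%), 9 of 466 in the Ptprc gate (1.93%), 16 of 18564 in the Omp gate (0.0862%), 2 of 1293 in the Krt5 gate and 0 of 163 in the Ascl3 gate, which allows a share of up to 1.84%. The Ascl3 value is in part set by the gating, since the 3 barcodes past both its limit and the tuft-marker rule were counted as tuft-marker. The other gates kept their barcodes past that rule.

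**Figure D2:**
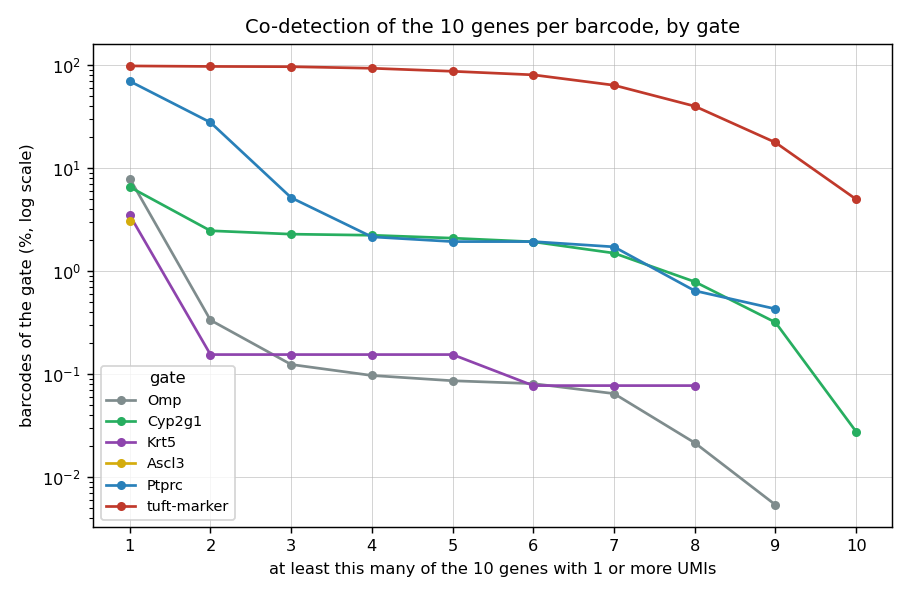
Share of the barcodes of each gate (percent, log scale) in which at least the given number of the 10 genes had a UMI, over all libraries; points at 0 are not drawn. The tuft-marker line stays above the others and is at 86.7% for 5 genes, the Cyp2g1 and Ptprc lines lie at 2.09% and 1.93% there, and the Ascl3 line ends at 1 gene. Barcodes past both the tuft-marker and the Ascl3 rule are in the tuft-marker line.

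Many barcodes that carried the tuft genes were at the same time rich in sustentacular RNA. Of the 449, 246 (54.8%) had at least 5 Cyp2g1 UMIs, against 25.8% of the barcodes with none of the genes, while 21.8% had at least 10 Omp UMIs against 54.4%. The 151 in the Cyp2g1 gate had a median of 29 UMIs of the 10 genes, 200 Cyp2g1 UMIs and 16907 UMIs in all. The other barcodes of that gate had a median of 135 Cyp2g1 UMIs and 13383.5 UMIs in all. The 157 in the tuft-marker gate had a median of 33 UMIs of the 10 genes, 1 Cyp2g1 UMI and 4235 UMIs in all.

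Both sets thus held like numbers of UMIs of the 10 genes, while total depth and Cyp2g1 were far apart. A score against simulated doublets removed 4 of the 151 (2.65%), 4 of the 157 (2.55%), 63 of 97 mixed barcodes (64.9%) and 15 of the 16 in the Omp gate (93.8%). Whether the 151 barcodes were 1 cell or 2 was not tested.

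**Figure D3:**
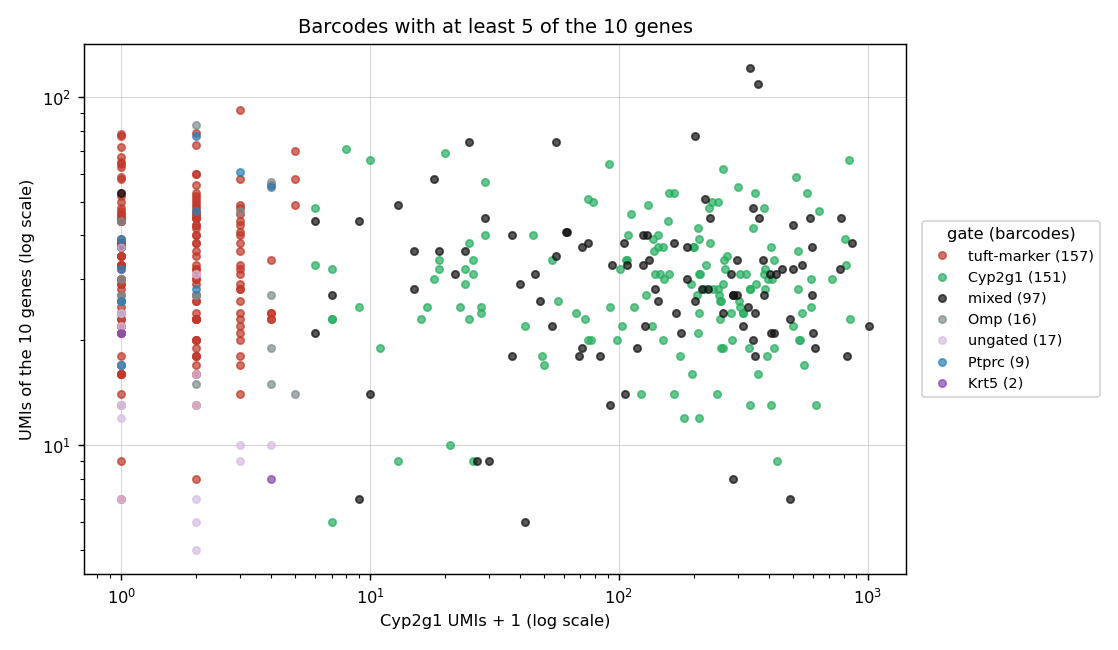
Each point is 1 of the 449 barcodes with at least 5 of the 10 genes, with its Cyp2g1 UMIs plus 1 on the horizontal and its UMIs of the 10 genes on the vertical axis, both on log scales, coloured by gate. Barcodes of the tuft-marker gate (median 33 UMIs of the genes, 1 Cyp2g1 UMI) and of the Cyp2g1 gate (29 and 200) reach like heights.

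How much of a gene lay in such barcodes differed between the 10. With the gene itself left out, barcodes with at least 3 of the other 9 genes held 98.0% of the Chat UMIs, 95.8% of Il25, 91.4% of Gnat3 and 90.4% of Trpm5. They held 74.6% of Ltc4s, 73.9% of Sh2d6, 73.8% of Avil, 61.9% of Plcb2 and 58.5% of Alox5ap. For Pou2f3 the share was 20.5%, and 72.8% of its UMIs lay in barcodes with none of the other 9. Chat, Il25, Gnat3 and Trpm5 were thus nearly limited to barcodes with several tuft genes, and Pou2f3 was not.

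Within the tuft-marker gate the less abundant genes were often seen apart. Gnat3 was seen in 37 of the 74 barcodes with Pou2f3 and in 31 of the 107 without it, Chat in 63.5% and 49.5%, and Plcb2 in 43.2% and 30.8%, at median depths of 4791.5 and 3852 UMIs. All 3 shares were thus larger in the barcodes with Pou2f3, which were also the deeper ones. Gnat3 was seen in 46.2% of the 65 barcodes with Plcb2 and in 32.8% of the 116 without it, at 4452 and 4202.5 UMIs. Gnat3 was seen in 35.8% of the 123 barcodes with Il25 and in 41.4% of the 58 without it, at median depths of 4308 and 4392.5 UMIs. Avil was seen in 94.0% of the 168 barcodes with Trpm5 and in 4 of the 13 without it. Those 13 had a median of 10414 UMIs against 4293.5 UMIs in the 168, so the barcodes without Trpm5 were the deeper ones. These shares are descriptions over barcodes that share a library, with no test.

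Gates were compared by edgeR's quasi-likelihood test on UMIs summed per gate and library, with the library as a block and Benjamini-Hochberg adjustment over 13024 genes. The first of these comparisons set the tuft-marker gate against the Ascl3 gate, the other microvillar cells of the epithelium. Genes entered the test when at least 4 of the 24 sums reached 6.32 CPM. Pou2f3, Chat and Gnat3 did so only through the tuft-marker gate, so a higher value there was set by the filter, and their values are a description. The other 7 reached the limit in at least 4 sums of other gates. Each of these 7 was higher in the tuft-marker gate (edgeR adjusted p 2.01e-13 to 2.31e-06), where 11.8% of all genes tested were called higher and 11.8% lower. In the Ascl3 gate Pou2f3, Chat, Plcb2, Gnat3, Sh2d6 and Avil had 0 UMIs, which allows a level of up to 2.40 CPM. The 3 barcodes past both the Ascl3 limit and the tuft-marker rule were counted as tuft-marker, so these low values are in part set by the gating. On UMIs pooled over the 4 libraries, with 3 counts over the gate as the floor, Avil was at least 271-fold, Sh2d6 at least 219-fold, Chat at least 63.5-fold, Gnat3 at least 50.3-fold, Pou2f3 at least 35.98-fold and Plcb2 at least 34.9-fold higher in the tuft-marker gate. Trpm5 had 904 UMIs against 1, a ratio of 996 (exact 95% interval 178 to 39370). Ltc4s had 695 against 2, a ratio of 383 (exact 95% interval 106 to 3167). Intervals and floors cover counting error only.

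The rest of the taste-type cascade was split between the gates. Of the 12 list genes tested, 4 were higher in the tuft-marker gate, 4 lower and 4 not called, with a median log2 fold change of -0.51 against 0.02 over all genes. Which sums admitted list genes to the test was not checked, here and below, so some of their higher calls may have been set by the filter. Itpr3 had 271 ± 41.2 CPM (SD, n = 4) in the Ascl3 gate against 19.8 ± 15.6 CPM, a log2 difference of -3.69 (SE 0.36, edgeR adjusted p 2.76e-08). Plcg2 had 333 ± 47.7 CPM against 201 ± 57.5 CPM (log2 fold change -0.77, SE 0.16, edgeR adjusted p 0.000900), and Gnb3 21.6 ± 9.28 CPM against 1.66 ± 3.32 CPM (-3.69, SE 0.93, edgeR adjusted p 0.00443). Gng13 (log2 fold change 2.65, SE 0.17, edgeR adjusted p 1.60e-11) and the inhibitory alpha subunit gene Gnai2 (1.31, SE 0.15, edgeR adjusted p 2.68e-07) were higher in the tuft-marker gate. The other 2 that were higher were the taste receptor genes Tas1r3 and Tas2r108, with 14 and 24 UMIs against 0. At such low counts these 2 are given as a description and not as a tested difference. The fourth gene that was lower was Gnas, the alpha subunit of the stimulatory G protein. The gate gene Hepacam2 had 562 ± 80.8 CPM in the Ascl3 gate and 411 ± 47.9 CPM in the tuft-marker gate.

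In the eicosanoid list, 6 of 12 genes tested were higher in the tuft-marker gate than in the Ascl3 gate, 1 lower and 5 not called (median log2 fold change 3.43). Alox5 had 835 UMIs against 0, and Ptgs1 had a log2 difference of 4.59 (SE 0.27, edgeR adjusted p 3.27e-12). The gene that was lower was Ptges, a prostaglandin E synthase, with 8.22 ± 10.4 CPM (SD, n = 4) against 220 ± 57.2 CPM. Of the 10 regulators tested, Gfi1b and Ascl3 helped to set the gates and their calls restate them. Of the other 8, Spib, Sox9, Ascl2, Colca2 and 1810046K07Rik were higher and 3 not called. In the cytokine list the gate gene Il17rb is likewise no result, Il4ra and Il13ra1 were higher and 2 were not called. In the cholinergic list 0 of 3 were higher and 2 lower, Slc44a1 and Chrm3.

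Against the Ptprc gate, Plcb2 was not called and the other 6 of the 7 genes that the filter admitted through other gates too were higher in the tuft-marker gate, where 42.9% of all genes tested were called, 19.2% of all as higher. Alox5ap had 423, 371, 697 and 563 CPM in the Ptprc gate and was seen in 60.9% of its barcodes, and none of these values reached the lowest of the tuft-marker gate (831 CPM). Its log2 fold change was 0.63 (SE 0.16, edgeR adjusted p 0.00267), and DESeq2 did not call it (0.63, adjusted p 0.232). Ltc4s had 95.7, 56.3, 115 and 79.7 CPM there, and its log2 fold change was 2.36 (SE 0.18, edgeR adjusted p 8.13e-11). Plcb2 had 46.5, 28.7, 62.0 and 26.6 CPM, values that overlapped those of the tuft-marker gate (log2 fold change 0.57, SE 0.38, edgeR adjusted p 0.254). Without TMM scaling Plcb2 was called (1.05, adjusted p 0.0273), where the median of all genes moved to 0.48, and without male 1 it was called too (1.11, adjusted p 0.0345).

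For the other 7 genes the UMIs of the Ptprc gate lay in few barcodes. Trpm5 had 61 UMIs there, and in the 442 barcodes with fewer than 3 of the other 9 genes it had 0, which allows a share of up to 0.679%. In barcodes with that limit, Alox5ap still had 498 ± 127 CPM, Ltc4s 68.7 ± 10.4 CPM and Plcb2 36.7 ± 11.7 CPM (SD, n = 4). Leukocytes are known to express all 3. With the 10 barcodes that passed the tuft-marker rule left out of the Ptprc gate, an alternative chosen after seeing the data, the log2 fold change of Trpm5 moved from 4.76 to 9.65 (SE 0.53, edgeR adjusted p 1.80e-13), and Plcb2 was again not called (0.71, edgeR adjusted p 0.137), where 44.7% of genes were called, 20.7% higher and 24% lower. In the eicosanoid list 4 of 12 genes tested were higher than in the Ptprc gate and 6 lower, with Alox5 at 50.3 ± 26.9 CPM and Hpgds at 143 ± 18.4 CPM (SD, n = 4) in the Ptprc gate.

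The comparison of the Omp gate with the Cyp2g1 gate asked where the genes lay among neurons and supporting cells. Pou2f3 was higher in the Omp gate and the other 9 genes were lower, where 46.2% of all genes were called higher and 39.4% lower. Pou2f3 had 5.34, 4.32, 4.74 and 4.54 CPM in the Omp gate and 1.31, 1.74, 0.653 and 1.29 CPM in the Cyp2g1 gate, with no overlap, and a log2 difference of 1.94 (SE 0.26, edgeR adjusted p 4.17e-07). Trpm5 had 1.55, 1.27, 0.962 and 1.75 CPM in the Omp gate and 6.67, 11.8, 7.10 and 6.73 CPM in the Cyp2g1 gate (log2 fold change -2.50, SE 0.26, edgeR adjusted p 3.24e-09).

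The 9 lower values rested in part on the barcodes with several tuft genes. When the 154 Cyp2g1-gated and 18 Omp-gated barcodes that passed the tuft-marker rule were left out, an alternative chosen after seeing the data, the log2 fold change of Pou2f3 rose to 3.83 (SE 0.33, edgeR adjusted p 2.51e-09). Sh2d6 turned to 0.69 (SE 0.26, adjusted p 0.0168) and Avil to 0.48 (SE 0.20, adjusted p 0.0275), both now higher in the Omp gate. Trpm5 turned to 0.55 (SE 0.39, adjusted p 0.190) and was not called, nor were Alox5ap (-0.58, adjusted p 0.0854) and Gnat3 (-0.11, adjusted p 0.858). Il25, Ltc4s, Chat and Plcb2 were again lower in the Omp gate, among 46.3% of genes called higher and 38.9% lower in that fit.

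Of all Pou2f3 UMIs, 58.5% lay in the Omp gate. In Omp-gated barcodes with fewer than 3 of the other 9 genes it had 4.70 ± 0.430 CPM (SD, n = 4) and was seen in 742 of 18543 (exact 95% interval of the share 3.72% to 4.29%). In the Cyp2g1 gate under the same limit it had 0.286 ± 0.180 CPM and was seen in 24 of 7074 (0.339%, 0.217% to 0.504%). The Cyp2g1 gate was the deeper of the pair, with a median of 13382.5 UMIs against 8373 UMIs. With each barcode thinned to 2000 UMIs the shares were 0.797% and 0.0296%. Only 25 of the 742 barcodes had 2 or more Pou2f3 UMIs. Its relatives Pou2f1 and Pou2f2 had 21.1 ± 0.501 CPM and 23.3 ± 1.25 CPM (SD, n = 4) in the Omp gate, and 32.0 ± 1.46 CPM and 1.59 ± 0.218 CPM in the Cyp2g1 gate.

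**Figure D4:**
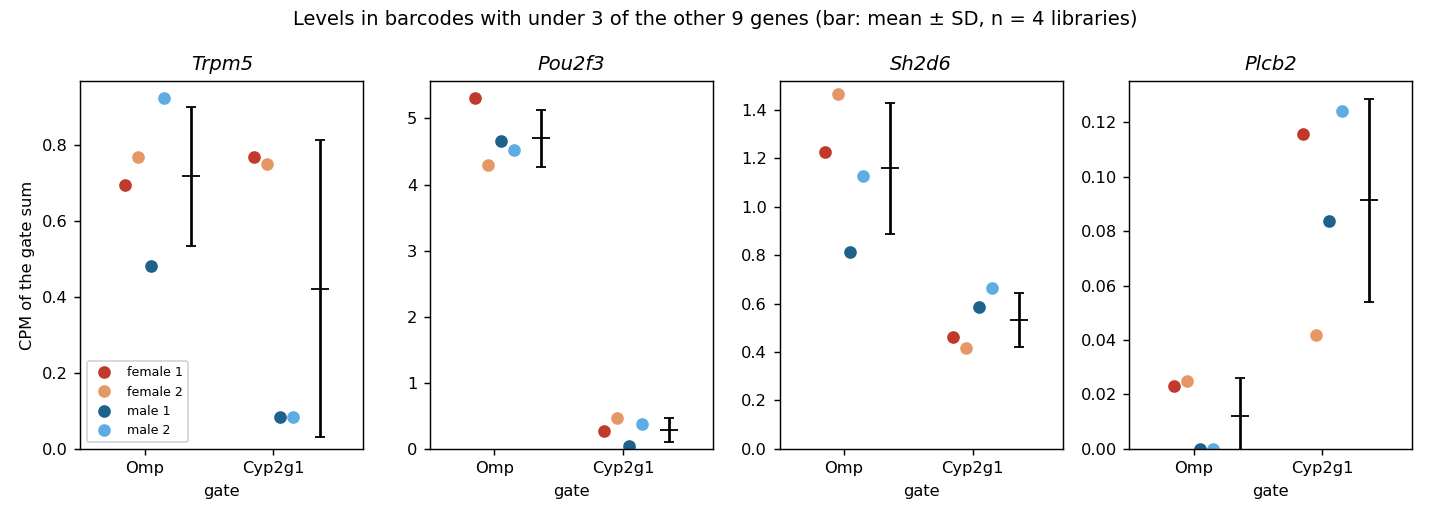
Level of Trpm5, Pou2f3, Sh2d6 and Plcb2 in counts per 1000000 UMIs of the gate sum, in Omp-gated and Cyp2g1-gated barcodes with fewer than 3 of the other 9 genes, 1 point per library and a bar for the mean ± SD (n = 4; 1 bar is clipped at 0). The Pou2f3 points do not overlap between the gates (4.70 against 0.286 CPM on average), and those of Trpm5 do.

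Levels also differed between classes of barcodes set by Gap43, the growth-associated gene that marks immature neurons. The first and the last class stood in opposite order for Pou2f3 and Sh2d6. Pou2f3 had 4.93 ± 0.421 CPM (SD, n = 4) in the 15331 Omp-gated barcodes without Gap43, 4.95 ± 0.662 CPM in the 2035 with 1 to 4 Gap43 UMIs and 3.18 ± 0.718 CPM in the 1198 with 5 or more. In the 1800 barcodes with 5 or more Gap43 UMIs and in no gate it had 0.712 ± 0.238 CPM. Sh2d6 had 1.09 ± 0.265, 2.33 ± 0.761, 2.66 ± 1.07 and 6.54 ± 0.400 CPM in the same order. The libraries of the first and the last class did not overlap for either gene, with Pou2f3 at 4.62 to 5.55 CPM against 0.436 to 1.014 CPM and Sh2d6 at 0.745 to 1.37 CPM against 6.23 to 7.11 CPM. After thinning, Sh2d6 was seen in 0.139% of the first class and 1.17% of the last. Trpm5 had 1.42 ± 0.541, 1.81 ± 1.24, 0.607 ± 0.347 and 0.146 ± 0.179 CPM in the same order, with 3 UMIs in the last class. Avil had 2.41 ± 0.349, 3.23 ± 0.919, 1.24 ± 0.152 and 1.21 ± 0.999 CPM (SD, n = 4). Being in no gate, the last class was also under the Omp limit, so Gap43 and Omp cannot be told apart in it. These classes were chosen after seeing the data and have no test.

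**Figure D5:**
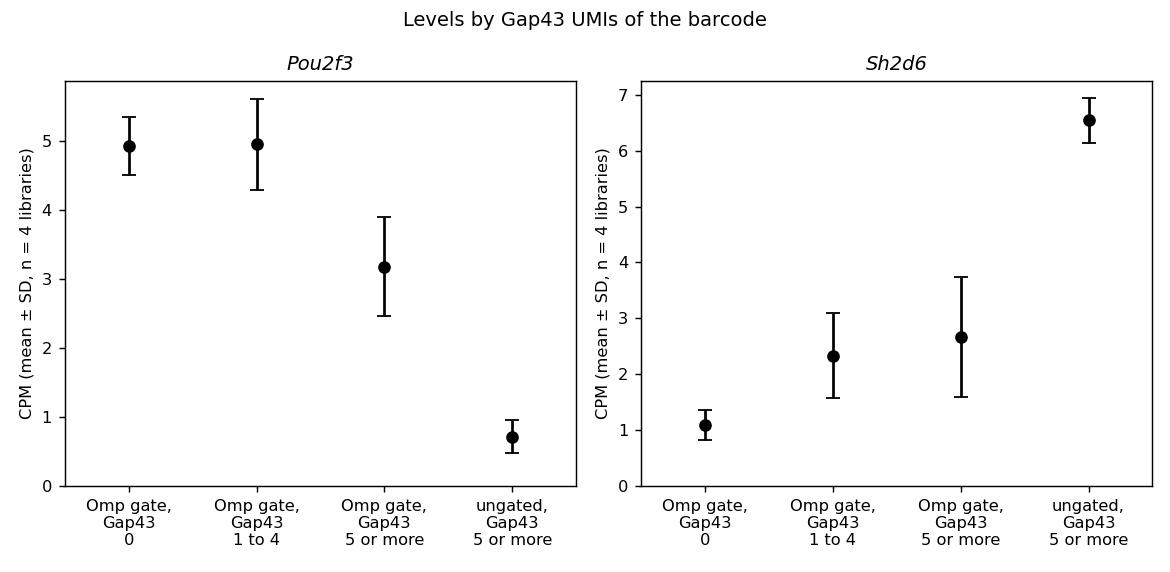
Level of Pou2f3 and Sh2d6 (counts per 1000000 UMIs, mean ± SD over 4 libraries) in barcodes split by their Gap43 UMIs. Pou2f3 is lowest (0.712 CPM) and Sh2d6 highest (6.54 CPM) in the barcodes that are rich in Gap43 and past no gate, which are also under the Omp limit.

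Trpm5 was seen in 128 of 18564 Omp-gated barcodes (0.690%, exact 95% interval 0.576% to 0.819%), with 34 of 4684 and 32 of 4520 in the female libraries and 22 of 4586 and 40 of 4774 in the male ones. Thinned to 2000 UMIs the share was 0.196%, and 21 barcodes (0.113%) had 2 or more UMIs. The 128 barcodes were of different kinds. In 16 of them 4 to 8 of the other 9 genes were also seen. These 16 held 109 of the 226 Trpm5 UMIs, between 4 and 20 each, at a median depth of 14942.5 UMIs, 14 passed the tuft-marker rule and 15 were removed by the doublet score. The other 112 held 1 or 2 Trpm5 UMIs, 107 of them a single one, and 100 had none of the other 9 genes.

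The 112 resembled other neurons in depth and in Omp, with medians of 9353 UMIs and 79 Omp UMIs against 8365 and 74 in barcodes without Trpm5. An odorant receptor could be assigned in 99 of them, and these were spread over 81 receptors. Their level, over Omp-gated barcodes with fewer than 3 of the other 9 genes, was 0.695 and 0.771 CPM for female 1 and 2, and 0.482 and 0.925 CPM for male 1 and 2. The same value in the Cyp2g1 gate was 0.770 and 0.752 CPM for female 1 and 2, and 0.0838 and 0.0828 CPM for male 1 and 2 (0.422 ± 0.391 CPM, SD, n = 4). The libraries of the gates overlapped through the females, while in both males the Omp gate was the higher. The share of barcodes was 0.604% (exact 95% interval 0.498% to 0.726%) in the Omp gate and 0.410% (0.275% to 0.588%) in the Cyp2g1 gate, at median depths of 8373.5 and 13382.5 UMIs. After thinning the shares were 0.142% and 0.104%. Whether Trpm5 in these neurons lay above its level in supporting cells was not tested on these barcodes. In the fit without barcodes past the tuft-marker rule, Trpm5 was not called between the gates (log2 fold change 0.55, edgeR adjusted p 0.190).

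Omp-gated barcodes with Trpm5 were compared with those without it, in sums per library. By edgeR's quasi-likelihood test with the library as a block, 4.25% of all genes tested were called, 1.59% higher and 2.66% lower with Trpm5. Chat and Plcb2 did not pass the filter on low counts. Il25, Ltc4s and Gnat3 passed it only through the sums with Trpm5 (none of the 4 sums without it reached the limit of 0.504 CPM), so a higher value there was set by the filter. As a description, Il25 had 47.9 ± 33.5 CPM (SD, n = 4) with and 0.309 ± 0.124 CPM without Trpm5. Of the 4 members that reached the limit in the sums without Trpm5 too, Alox5ap (log2 fold change 6.64), Avil (4.94) and Sh2d6 (4.80) were higher (edgeR adjusted p 3.76e-08 to 1.78e-05). Pou2f3, at 0.84 (SE 0.55, edgeR adjusted p 0.546), was not called.

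The rule named 10 genes in each direction, with genes of an Olfr symbol left out. Those higher were Sh2d7, Ly6g6f, Lrmp, Pik3cg, Adgrg6, Rgs13, Il25, Drd4, Alox5 and Spib, and all 10 passed the filter only through the sums with Trpm5, so their direction was set by it and they are given as a description. Lrmp had 126 ± 53.8 CPM against 0.447 ± 0.0992 CPM (SD, n = 4). Those lower were Fxyd2, OR5BS1P, Bpifb4, Gm13723, Top2a, Neurod1, Hbb-bs, Hbb-bt, Apoe and Lyz2. The first 5 had 0 UMIs in the barcodes with Trpm5, Neurod1 had 1, and Hbb-bt and Lyz2 had 2 each. They could not reach the filter limit in the 4 sums with Trpm5, so they passed only through the sums without it. With 0 to 2 UMIs with Trpm5, they could enter the test only by reaching the limit without it, so they too are a description. For Hbb-bs and Apoe this was not checked. OR5BS1P has the symbol of an odorant receptor pseudogene, which the rule on Olfr symbols did not leave out. Of the Fxyd2 UMIs of the gate 40.4% lay in 10 barcodes, and of the Hbb-bs UMIs, a hemoglobin gene, 90.1%. Of the 348 genes called lower, 287 were odorant receptors, each of which is used by few neurons. How many of the 348 passed the filter only through the sums without Trpm5 was not counted.

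Most of the higher calls went with barcodes past the tuft-marker rule, which 14 of the 16 barcodes with several other tuft genes passed. When barcodes past the tuft-marker rule were left out, 19 genes were higher in place of 209 (1.59% of all tested), and 11 of the 19 were odorant receptors. In that fit 312 genes were lower, and the share of all genes tested that was called is not given here. Il25, Ltc4s and Gnat3 did not pass the filter there. Of the 4 members tested Sh2d6 was called (log2 fold change 2.89, SE 0.77, edgeR adjusted p 0.0263), and Avil (1.60, adjusted p 0.611), Alox5ap (2.31, adjusted p 0.477) and Pou2f3 (0.34, adjusted p 0.994) were not. The rest of the 16 barcodes, which did not pass the rule, stayed in these sums. The 4 genes that the rule then named as higher were Slurp2 (45.6 ± 14.4 CPM with and 14.2 ± 1.51 CPM without Trpm5, SD, n = 4), Acsl3, Calb2 and Ptn. Calb2, the gene of calretinin, had a log2 difference of 0.61 (SE 0.11, edgeR adjusted p 0.000130). With barcodes that held other tuft genes left out, Calb2 (0.73), Slurp2 (1.74) and Ptn (0.43) were again named, and Gap43 (0.71, SE 0.13, edgeR adjusted p 0.000190) was too.

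Zone and subtype genes of neurons also differed between the sums. Of the 10 zone and class genes, Nqo1 (132 ± 65.3 against 274 ± 52.5 CPM, SD, n = 4, log2 fold change -1.17, SE 0.20, edgeR adjusted p 0.00139) and Acsm4 (-1.05, SE 0.20, edgeR adjusted p 0.00380) were lower with Trpm5, Nfia was higher (0.79, SE 0.21, edgeR adjusted p 0.0458) and 7 were not called. With barcodes past the tuft-marker rule left out, Nqo1 (-0.89, edgeR adjusted p 3.43e-05) and Acsm4 (-0.80, edgeR adjusted p 0.0133) were also called, and Nfia was not (0.29, edgeR adjusted p 0.889). These are genes of the dorsal (Nqo1, Acsm4) and ventral (Nfia) zones of the epithelium. Of the 10 subtype genes tested, Car2 (-1.11, SE 0.17, edgeR adjusted p 0.000613) and Gucy1b2 (-2.30, SE 0.51, edgeR adjusted p 0.0128) were lower and Pde2a (3.14, SE 0.46, edgeR adjusted p 0.000431) higher, and none of the 4 maturity genes was called. With barcodes past the tuft-marker rule left out, the maturity gene Gap43 was called higher (0.54, SE 0.14, edgeR adjusted p 0.0217), and Omp, Gng8 and Stmn2 were not called. Omp-gated barcodes with 5 or more Gap43 UMIs were deeper than those without Gap43, with medians of 13723.5 and 7961 UMIs. After thinning, Trpm5 was seen in 0.0835% of the former and 0.205% of the latter, barcodes past the tuft-marker rule included. What part depth had in the Gap43 calls of either left-out fit was not tested. Pde2a had 25.2 ± 5.40 CPM with Trpm5, and 6.45 ± 2.88 CPM once barcodes past the tuft-marker rule were left out, where it was not called (log2 fold change 1.21, edgeR adjusted p 0.695), while Car2 (-1.11, edgeR adjusted p 0.000222) and Gucy1b2 (-1.99, edgeR adjusted p 0.0317) were called. Adcy3 (1472 ± 158 against 1536 ± 22.7 CPM) and Cnga2 (963 ± 101 against 1003 ± 23.4 CPM) of canonical olfactory transduction were not called.

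Trpm5 could be compared across odorant receptors only in part. In the Omp gate 58 receptors had at least 10 assigned barcodes in each library, and Trpm5 had a mean of 0.431 counts per sum of receptor and library, under the minimum of 0.5 set for the test. With the minimum at 0.2 it was called by edgeR's quasi-likelihood F test (F 2.21, adjusted p 0.000829), but 60 of the 100 UMIs lay in 7 barcodes with at least 3 of the other 9 genes, and the remaining 40 UMIs were under that minimum too. Alox5ap (F 2.05, edgeR adjusted p 0.00436) and Sh2d6 (F 1.68, edgeR adjusted p 0.031) were also called at the lower minimum. At the minimum of 0.5, 30.7% of all genes tested were called, and the share at 0.2 is not given here. How many of the 96 Alox5ap and 80 Sh2d6 UMIs lay in barcodes with several tuft genes was not counted. The 5 receptors with the highest Trpm5 level in the summed females were Olfr1228 (35.4 CPM), Olfr1507 (10.3), Olfr727 (8.58), Olfr740 (5.48) and Olfr314 (5.28). In the summed males Olfr1507 had 17.4 CPM and the other 4 had 0 UMIs. The lowest receptors could not be ordered, since 42 of the 58 had 0 Trpm5 UMIs in females and 42 in males.

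Counted by barcodes with fewer than 3 of the other genes, over 225 receptors with at least 20 barcodes, Trpm5 was seen in 69 of 10537 (0.655%). It was absent from 174 of the receptors, seen in 1 barcode of 41 and in 2 or more of 10. Olfr1507 had 6 of 213, from all 4 libraries, and Olfr1348 had 4 of 205. Pou2f3 was seen in 449 of 10538 (4.26%) and in 2 or more barcodes of 107 receptors. In the F test across receptors, where 30.7% of all genes tested were called, Pou2f3 was not called (F 1.27, edgeR adjusted p 0.255). Avil was called (F 1.75, edgeR adjusted p 0.015) and lost the call without male 1 (adjusted p 0.191) or male 2 (adjusted p 0.0534).

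Between the sexes, edgeR's quasi-likelihood test called 0 of the 10 genes in whole libraries (0.0239% of all genes were called), 0 of 10 in the tuft-marker gate (0.0345%) and 0 of 7 tested in the Omp gate (0.00691%). No member had an unadjusted p under 0.05 in these 3 fits, and DESeq2 called none. Log2 fold changes of male over female lay between -0.23 (Il25) and 0.19 (Alox5ap) in whole libraries and between -0.77 (Plcb2, SE 0.36, edgeR p 0.0580) and 0.42 (Il25, SE 0.39) in the tuft-marker gate. The tuft-marker gate held 0.352% and 0.533% of the female barcodes and 0.580% and 0.367% of the male ones, and the sexes overlapped (difference 0.0311 percentage points, exact two-sided permutation p 0.667, where 0.333 is the smallest that 2 against 2 can give). Barcodes with 5 or more of the 10 genes made up 0.949% and 1.34% in females and 1.22% and 1.02% in males (exact permutation p 1). In simulated counts with 2-fold changes the test recovered 31.2% of changed genes in the tuft-marker gate and 93.9% in whole libraries, so a 2-fold difference within the gate would often have been missed. The simulation used a fixed spread for every gene and not the spread between these libraries. Both shares can thus be too high for genes that varied more.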

How the data were processed

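Single-cell RNA libraries of 4 samples were used, each as 1 replicate of its sex, grouped by the labels. The authors deposited raw UMI counts per gene and barcode. Cell Ranger 6.0.2 made these counts, per the file headers, while the submitters' processing notes name Cell Ranger 5.0.1 and mm10. No per-sample column was left unused. The 10 genes and all gene lists were chosen with earlier results of these data known.

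Barcodes with at least 500 genes and at most 10% mitochondrial UMIs were kept, from libraries of 100725429 to 111577458 UMIs, and gated by marker UMIs. No doublets were removed, and scores against simulated doublets served only as an alternative. UMIs were summed per gate and library and tested with edgeR 4.0.16 (R 4.3.3; TMM scaling, filterByExpr, quasi-likelihood test, Benjamini-Hochberg adjustment at 0.05). The sexes were compared without a block, and gates and Trpm5 classes with the library as a block. The F test across odorant receptors needed at least 10 barcodes per receptor and library and a mean of 0.5 counts, and used a common dispersion taken from the 10% most abundant genes. DESeq2 1.42.0 was an alternative. Other alternatives were no TMM scaling, no filter, other blocks, each library left out, doublet scores, doubled gate limits, thinning to 2000 UMIs, at least 2 Trpm5 UMIs, and leaving out barcodes with other tuft genes. Counts, gates and intervals used Python 3.11.15, numpy 2.4.6, scipy 1.17.1 and scikit-learn 1.9.0. Intervals are exact (Clopper-Pearson), and 3 counts set the upper limit for a count of 0.

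Genes were named by rule: the 10 members, all genes of the lists, the 10 largest called changes in each direction with and without Trpm5 that went the same way in every library (genes with an Olfr symbol and Trpm5 left out), the 5 receptors highest and the 5 lowest in Trpm5 in the summed females, and the 10 genes most like the mean of 4 members. On simulated data with 2-fold changes the tests recovered 37.4% (tuft-marker over Ascl3), 45.8% (tuft-marker over Ptprc), 55.3% (with over without Trpm5), 88.4% (sex, Omp gate) and 100% (Omp over Cyp2g1) of changed genes. These simulations gave every gene the same fixed spread, so the shares can be too high for genes that varied more between the libraries.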

Additional observations from a re-analysis of the deposited data

How the results depend on the processing

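The direction and call of the members between gates mostly held over the alternatives. Over all comparisons and levels of the members, those of sex, Trpm5 and receptors included, 698 values stayed the same and 42 reversed. Nearly all of those that reversed were sex differences near 0. No member was called between the sexes, so a call kept there is one that stayed absent. Precision was limited by depth: 181 barcodes in the tuft-marker gate, and 226 Trpm5 UMIs in the Omp gate.

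The number of genes called between the sexes in whole libraries (4) was 488 by DESeq2 and 1 to 5 with a library left out. In the tuft-marker gate (2) it was 0 with no filter on low counts, 0 with doubled gate limits and 3 to 98 with a library left out. In the Omp gate (1) it was 268 by DESeq2, 7 with doublet scores, 3 with doubled limits and 1 to 2 with a library left out. The cause was not tested. The difference in the share of tuft-marker barcodes (0.0311 percentage points) ranged from -0.0750 to 0.137 with a library left out.

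Replicate numbers name libraries only. The difference between female 1 and 2 and that between male 1 and 2 had a correlation of -0.0404 over 14191 genes. With the replicate number as a block, the test of sex called 1 gene in whole libraries, 15 in the tuft-marker gate and 1 in the Omp gate.

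With over without Trpm5, the 557 calls became 356 with no library block, 236 with doublet scores, 1355 with at least 2 Trpm5 UMIs, 151 after thinning, 320 with barcodes that held other tuft genes left out and 331 with those past the tuft-marker rule left out. The share of Omp-gated barcodes with Trpm5 was 0.196% after thinning and 0.113% at 2 or more UMIs.

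Among single members, the log2 difference between the sexes reversed for Chat with doublet scores in whole libraries (0.0014), and with doubled limits in the tuft-marker gate for Trpm5 (-0.097), Il25 (-0.32), Alox5ap (-0.0019), Ltc4s (-0.20) and Gnat3 (-0.18). With barcodes past the tuft-marker rule left out of the Omp gate it reversed for Trpm5 (0.033) and Alox5ap (0.34), and Omp over Cyp2g1 reversed for Trpm5 (0.55), Sh2d6 (0.69) and Avil (0.48). With over without Trpm5 reversed for Pou2f3 after thinning (-7.27) and for Alox5ap with barcodes that held other tuft genes left out (-6.85). Only 36 barcodes carried Trpm5 after thinning, and at such low counts the size of either value is not a reliable fold change.

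With a library left out, the log2 difference between the sexes in whole libraries ran from -0.31 to 0.24 (Trpm5), -0.070 to 0.014 (Pou2f3), -0.31 to 0.25 (Chat), -0.023 to 0.43 (Alox5ap), -0.017 to 0.17 (Ltc4s), -0.30 to 0.059 (Gnat3), -0.22 to 0.17 (Sh2d6) and -0.11 to 0.23 (Avil). In the tuft-marker gate it ran from -0.050 to 0.40 (Trpm5), -0.38 to 0.96 (Il25), -0.068 to 0.35 (Ltc4s), -0.036 to 0.49 (Gnat3), -0.36 to 0.041 (Sh2d6) and -0.35 to 0.13 (Avil). In the Omp gate it ran from -0.50 to 0.34 (Trpm5), -0.16 to 0.13 (Pou2f3), -0.98 to 0.036 (Il25), -0.76 to 0.29 (Alox5ap) and -0.091 to 0.85 (Ltc4s).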
